A study of Mus musculus with 38 samples.

Results

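The core circadian clock genes were taken as 10 named genes: Arntl, Clock and Npas2, called activators here, and Per1, Per2, Per3, Cry1, Cry2, Nr1d1 and Nr1d2, called repressors. A gene was measured by the probe that carried its symbol alone, and where several probes did so, by the brightest on average. Of the 10 genes, 9 were measured in this way, among 18820 genes of the series with such a probe. Nr1d1 had only probes that also carried the name of another gene and was not analysed here. Nr1d2 had 2 probes, of which the brighter was used, and each of the other 8 genes had 1.

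RNA was measured on Affymetrix arrays. The mice were of the inbred strain C57BL/6J and carried a slow-release pellet, with haloperidol or placebo, for 30 days before whole brain or liver was taken. Haloperidol is an antipsychotic drug that blocks dopamine D2 receptors. The 4 groups were brain with haloperidol (n = 10), brain with placebo (n = 10), liver with haloperidol (n = 9) and liver with placebo (n = 9), and per the series' design text each array held the tissue of 1 mouse. All groups shared the strain and the implanted pellet, and no group without a pellet was included. No dose, age, sex or time of day of dissection is stated in the labels used here.

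The circadian clock of mammalian cells is a loop of transcription and translation that takes about a day. CLOCK or its relative NPAS2 pairs with BMAL1, the product of Arntl, and this pair binds E-box elements and turns on the Per, Cry and Nr1d genes. PER and CRY proteins return to the nucleus and inhibit the pair, while the nuclear receptors encoded by Nr1d1 and Nr1d2, known as REV-ERB alpha and beta, compete with ROR receptors at ROR elements and repress Arntl, Npas2, Clock and Cry1. In mouse liver the transcripts of Arntl and Npas2 are known to peak at about the opposite time of day from those of the Per and Nr1d genes. The suprachiasmatic nucleus, a small part of the hypothalamus that is set by light, coordinates the clocks of other tissues. A whole-brain sample mixes it with many other regions.

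Sequence upstream of 3 clock genes and a short stretch of Arntl are shown because they hold the elements through which the loop is thought to act, in the genes whose values moved together or against each other below. They are RefSeq sequences of build GRCm38.p6, each written 5′ to 3′ on the strand of the gene. Of the 10 genes, 9 had at least 1 promoter window of 300 bases, from 250 bases before a transcription start to 50 after it, and 13 windows in all were searched on both strands. Per2 had no window and was not searched. Positions count from the start, where the first transcribed base is +1. Capitals mark the matches of the motifs searched.
Per1, chr11:69098699-69098948, plus strand: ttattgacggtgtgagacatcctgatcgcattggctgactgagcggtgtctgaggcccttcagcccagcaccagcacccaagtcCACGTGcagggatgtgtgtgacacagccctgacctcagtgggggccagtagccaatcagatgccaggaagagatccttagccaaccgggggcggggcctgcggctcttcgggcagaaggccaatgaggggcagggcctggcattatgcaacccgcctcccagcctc
Cry1, chr10:85185055-85185304, minus strand: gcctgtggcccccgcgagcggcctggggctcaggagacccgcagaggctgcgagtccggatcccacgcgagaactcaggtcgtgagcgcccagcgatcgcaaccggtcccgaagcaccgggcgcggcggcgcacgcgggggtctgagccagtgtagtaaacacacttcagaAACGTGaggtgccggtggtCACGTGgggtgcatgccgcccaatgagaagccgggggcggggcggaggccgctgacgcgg
Per3, chr4:151044666-151044915, minus strand: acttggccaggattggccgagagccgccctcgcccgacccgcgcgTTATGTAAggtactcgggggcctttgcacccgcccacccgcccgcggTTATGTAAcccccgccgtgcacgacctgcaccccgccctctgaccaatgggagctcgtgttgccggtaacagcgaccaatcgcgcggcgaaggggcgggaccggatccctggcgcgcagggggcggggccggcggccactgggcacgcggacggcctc
Arntl, chr7:113207530-113207559, plus strand: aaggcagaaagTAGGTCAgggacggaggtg

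The stretches differ in which elements they hold. The E-box CACGTG occurred in Per1 at -166 to -161 and in Cry1 at -60 to -55, and 7.15% of all 32851 RefSeq windows held it. The related E′-box CACGTT, read on the opposite strand as AACGTG, occurred in Cry1 at -79 to -74, and in Cry2 and Nr1d1, against 4.685% of all windows. D-boxes (TTATGTAA or TTACGTAA), elements bound by DBP, TEF, HLF and NFIL3, stood in Per3 at -205 to -198 and again at -158 to -151, and 1.056% of all windows held 1 or more. The core of the ROR element (TAGGTCA or TGGGTCA) stood in 1 of 2 windows of Arntl, at +31 to +37, and 6.453% of all windows held it. The windows of Clock, Npas2 and Nr1d2, the other window of Arntl and the other of Per1 had no match to these letters, which says nothing of more distant sequence. A match is a description and was not tested as a binding site.

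Facts of the whole series that bear on these genes were as follows. Values are log2 expression values that the authors made by RMA, a method that corrects background, gives arrays a common distribution and summarises the probes of a gene. The array medians of brain and liver differed, as after separate normalization, so levels were compared within a tissue and for 1 gene at a time. The mean of each of the 9 genes lay above the limit for dim genes, which was 5.51 in brain and 3.92 in liver and left 12547 genes to test in each. The median over all probes of an array was lower in the haloperidol brains (6.19 ± 0.072, SD, n = 10) than in the placebo brains (6.33 ± 0.044), with 4.89 ± 0.090 (SD, n = 9) and 4.80 ± 0.082 in liver. Snap25, a synaptic gene, lay between 12.69 and 12.88 on every brain array and Alb, the albumin gene, between 13.13 and 13.27 on every liver array. In brain Alb reached 11.11 in haloperidol 4T, where the next highest brain was at 4.51. Gh, the growth hormone gene of the pituitary, had a brain median of 5.15 and was highest in placebo 1L (11.49), haloperidol 1R (10.45) and haloperidol 2N (10.19).

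In whole brain, 5 of the 9 clock genes were lower after haloperidol: Per2, Per3, Arntl, Per1 and Cry2. No clock gene was higher, and members of both arms of the loop were among those that fell. The change ran from 0.730 times the placebo level for Per2 to 0.871 times for Cry2. Each gene was tested with limma, a linear model with variances shared across genes, with Benjamini-Hochberg adjustment over 12547 genes and a threshold of 0.05. Of all genes tested, 30.4% passed in this comparison and 15.2% passed as lower. The median change of the 9 clock genes was -0.20, beside -0.02 over all genes.

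Among the activators, Arntl ranged from 7.90 to 8.54 in the placebo brains with a median of 8.30, and from 7.48 to 8.23 in the haloperidol brains with a median of 8.03. All 10 haloperidol brains lay below the placebo mean, 3 of them below the lowest placebo brain, and the groups overlapped. The change was -0.31 (SE 0.088, limma adjusted p = 0.0118). Clock, whose product pairs with BMAL1 as that of Npas2 does, lay at 9.81 ± 0.12 in placebo brains and 9.68 ± 0.13 in haloperidol brains (SD, n = 10 each), a change of -0.13 with a 95% confidence interval of -0.25 to -0.01 that did not pass after adjustment (limma adjusted p = 0.0986). Npas2, which is strongly expressed in forebrain, was at 9.59 ± 0.22 and 9.47 ± 0.21, and its change of -0.12 (interval -0.31 to 0.07, limma adjusted p = 0.317) did not pass.

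Among the repressors, Per2, whose protein inhibits the BMAL1 pair, changed most. It ranged from 7.95 to 8.46 (median 8.18) with placebo and from 7.44 to 8.15 (median 7.70) with haloperidol. All 10 haloperidol brains lay below the placebo mean and 7 below the lowest placebo brain, while 3 still lay within the placebo range. The change was -0.45 (SE 0.091, limma adjusted p = 0.00426).

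Per3, the third Period gene, ranged from 8.04 to 8.62 (median 8.40) with placebo and from 7.31 to 8.45 (median 8.09) with haloperidol. Of the haloperidol brains 9 of 10 lay below the placebo mean, and the change was -0.34 (SE 0.107, limma adjusted p = 0.0207). Per1, which is also an immediate response gene in neurons, ranged from 9.17 to 9.70 (median 9.29) with placebo and from 8.72 to 9.46 (median 9.10) with haloperidol. Its change was -0.26 (SE 0.094, limma adjusted p = 0.0404), with 8 of 10 haloperidol brains below the placebo mean and 6 below the lowest placebo brain.

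Of the cryptochromes, partners of the PER proteins, Cry2 passed and Cry1 did not. Cry2 was tightly grouped with placebo, from 9.72 to 9.90 (median 9.81), and spread from 9.30 to 9.97 (median 9.59) with haloperidol. Its change was -0.20 (SE 0.069, limma adjusted p = 0.0321), 7 haloperidol brains lay below every placebo brain and 1 lay above them all. Cry1 was at 7.95 ± 0.19 with placebo and 7.89 ± 0.19 with haloperidol (SD, n = 10 each), and its change of -0.06 (interval -0.23 to 0.11, limma adjusted p = 0.586) did not pass. Nr1d2, a repressor of Arntl, was at 9.62 ± 0.12 and 9.74 ± 0.17, and its change of 0.12 (interval -0.02 to 0.26, limma adjusted p = 0.163) did not pass.

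**Figure D1:**
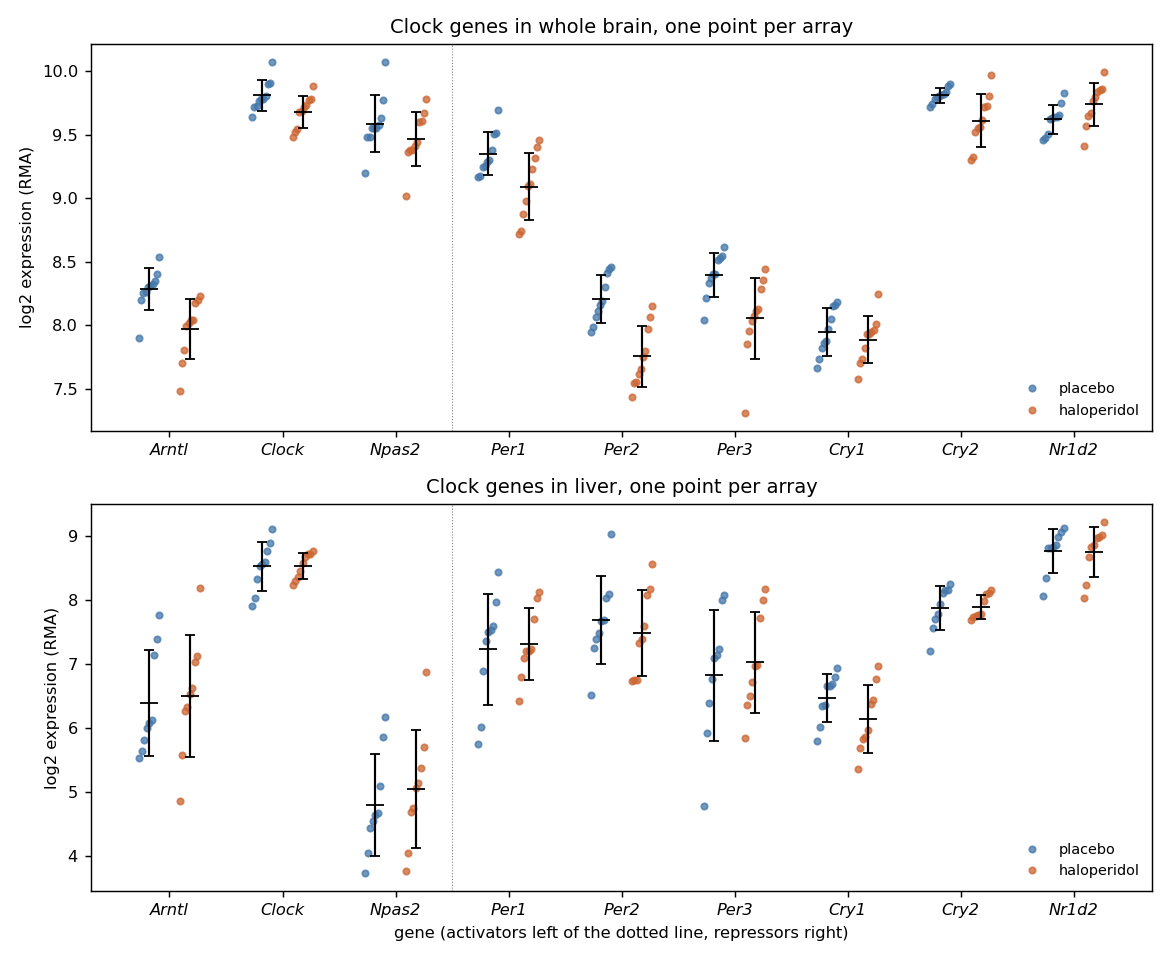
Log2 expression (RMA) of the 9 measured clock genes in whole brain (upper panel, 10 arrays per group) and liver (lower panel, 9 arrays per group), with placebo in blue and haloperidol in orange. Points are arrays in order of value, and black bars give the mean and SD. The groups overlap for every gene, the brain points of Per2 and Arntl sit lower with haloperidol, and the liver points of Arntl, Npas2 and Per3 spread over 3 or more log2 units; levels of different genes are not comparable.

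These calls depended on how the brain arrays as a whole were treated. With the array median as a covariate 0 of the 9 genes passed and 0 of 12547 did (0% of genes, with 550 at an unadjusted p below the threshold by limma), and Per3 turned to 0.073, while Per2 stood at -0.28 and Arntl at -0.09. The array median nearly separated the treatments: placebo brains lay at 6.27 to 6.40, and only haloperidol 1R (6.33) reached that range, with 2L next at 6.25. In this fit treatment and array level therefore cannot be told apart well, and few changes could pass. With the array median subtracted, where the median over all genes moved to 0.12, 3.72% of genes passed as lower and 32.6% as higher, Per2 was lower (-0.32, limma adjusted p = 0.00775) and Nr1d2 was higher (0.26, limma adjusted p = 0.0096), and Arntl, Per1, Per3 and Cry2 did not pass. With brain and liver in 1 fit of all 38 arrays, where the spread is shared with liver, 0 of the 9 passed while 10.4% of genes passed as lower, 2 of the 9 had an unadjusted p below 0.05, and limma adjusted p was 0.0994 for Per2 and 0.391 for Arntl.

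Single arrays mattered for the smaller changes. Leaving out each of the 20 brain arrays in turn, Per2, Arntl and Per3 passed in 20 of 20 fits. Per1 did not pass in 10 of them, those without haloperidol 2L, 2T, 3B, 3R or 4N or without placebo 1L, 1N, 1T, 2B or 4B, with limma adjusted p of 0.0518 to 0.0834. Cry2 did not pass in 6, those without haloperidol 1B, 3B, 3R or 4N or without placebo 1L or 2B, with limma adjusted p of 0.0510 to 0.0671. Clock passed as lower without haloperidol 1R (limma adjusted p = 0.0453), and Nr1d2 as higher without haloperidol 4T (0.0476). Leaving out placebo 1L and haloperidol 4N and 4T together, which earlier results had set apart, Per2 (-0.42, limma adjusted p = 0.0157) and Arntl (-0.28, 0.0275) passed and the other 7 genes did not, beside 10.6% of all genes passing as lower.

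Some markers of other cells differed with treatment in brain too, where 15.2% of all genes passed as higher. Of 3 microglial markers 3 were higher with haloperidol (Aif1, Tyrobp and C1qa), with a mean level of 6.76 to 7.37 across placebo and 7.12 to 8.09 across haloperidol brains. Of 4 neuropeptides listed for the suprachiasmatic nucleus the 2 above the dim limit, Avp and Vip, were higher, and Nms and Prok2 were not tested. The mean of the 4 ran from 5.60 to 5.93 and from 5.63 to 6.28. Whole-brain values do not tell in which region these transcripts were made, so a change in that nucleus is not shown. Of 3 choroid plexus markers 1 was higher, with a mean of 7.61 to 8.80 and 8.45 to 8.95, and the only blood marker measured, Alas2, was higher, at 6.31 to 7.30 and 7.47 to 8.13. None of 3 neuronal and 3 astrocyte markers and of the 1 oligodendrocyte marker measured passed. Of 4 hepatocyte markers 1 was above the dim limit, Ttr, which is also 1 of the 3 choroid plexus markers, and 0 passed. The brain median of Ttr was 12.25, against 4.23 for Alb, 5.04 for Apoa1 and 3.17 for Serpina1c. The mean of the 4 ran from 5.94 to 6.40 across placebo and from 6.12 to 10.02 across haloperidol brains, with the highest value in haloperidol 4T. Of 4 pituitary markers 2 were above the dim limit and 0 passed, and the mean of the 4 ran from 4.79 to 8.31 with placebo, highest in 1L, and from 4.72 to 7.86 with haloperidol, highest in 1R. Of 3 Kupffer cell markers 1 was above the dim limit and 0 passed, with a mean of 4.69 to 5.19 and 4.91 to 5.23. The part of these cells in the clock gene results was not tested, and in bulk tissue fewer cells of a type and less RNA per cell cannot be told apart.

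In liver, 0 of the 9 clock genes passed between haloperidol and placebo, where 0% of all genes passed. By limma 0 of the 9 had an unadjusted p below 0.05, as by the Wilcoxon rank sum test, and 1316 of 12547 genes did by limma. The intervals were wide, and the clock genes varied greatly between livers of 1 group. Cry1 changed most, from 6.47 ± 0.37 (SD, n = 9) with placebo to 6.14 ± 0.53 with haloperidol, by -0.33 (interval -0.74 to 0.07, limma adjusted p = 0.542). For Arntl the change was 0.11 (interval -0.66 to 0.89), for Npas2 0.25 (-0.50 to 0.99) and for Clock 0.01 (-0.27 to 0.29). For Per1 it was 0.08 (-0.55 to 0.72), for Per2 -0.20 (-0.80 to 0.40) and for Per3 0.21 (-0.59 to 1.0). For Cry2 it was 0.02 (-0.24 to 0.28) and for Nr1d2 -0.01 (-0.34 to 0.32). A change of the size seen for Per2 in brain lies inside the liver intervals of Arntl, Npas2, Per1, Per2, Per3 and Cry1, so a change of that size is not excluded by these intervals.

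The difference of the haloperidol change between liver and brain was tested directly in 1 model of 38 arrays. By limma 0 of the 9 clock genes passed and 0 had an unadjusted p below 0.05, where 23% of 10869 genes passed. Per3 differed most, by 0.55 (liver minus brain, interval -0.25 to 1.34, limma adjusted p = 0.319), and Arntl by 0.43 (interval -0.33 to 1.19, 0.426). For Cry2 it was 0.22 (-0.06 to 0.50, 0.256). The brain changes are therefore not shown to differ from those in liver.

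**Figure D2:**
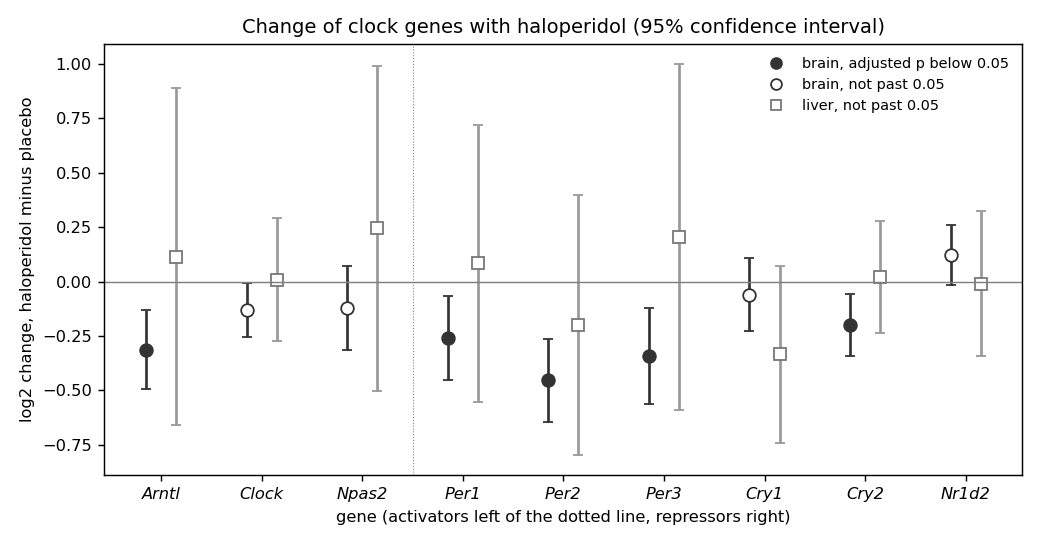
Log2 change of each clock gene, haloperidol minus placebo, with its 95% confidence interval from limma, in brain (circles) and liver (squares). Filled circles mark the 5 genes past the adjusted threshold of 0.05 in brain; the liver intervals all include 0 and are up to several times as wide as those in brain.

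The spread of the clock genes within groups was itself unlike that of most genes in liver. The SD within groups was 0.92 for Per3, 0.89 for Arntl, 0.86 for Npas2, 0.73 for Per1 and 0.68 for Per2, against a median of 0.22 over 12547 genes. These genes ranked at places 19, 22, 28, 62 and 84 from the most variable. Cry1 (0.46, place 461), Nr1d2 (0.37, place 1199), Clock (0.31, place 2390) and Cry2 (0.28, place 3386) followed. In brain the SD ran from 0.13 for Clock to 0.26 for Per3, against a median of 0.17, and the clock genes stood between the percentiles 19.6 and 84.9 of all genes.

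Individual livers show how wide this was. Arntl ran from 4.85 in haloperidol 1B to 8.19 in haloperidol 2L, a span of 10.2-fold, with medians of 6.07 for placebo and 6.53 for haloperidol. Npas2 had its lowest value in placebo 4R (3.73), close to that of haloperidol 1B (3.76), and its highest in haloperidol 2L (6.87), a span of 8.83-fold. Its lowest values lay under the limit used for dim genes. Per3, at the other end of the loop, ran from 4.78 in placebo 3N to 8.17 in haloperidol 2N, a span of 10.5-fold. Per1 spanned 6.42-fold, from 5.75 in placebo 3N to 8.44 in placebo 4R, and Per2 5.73-fold between the same livers, from 6.51 to 9.03. The livers at the extremes came from both treatments, and placebo 3N and placebo 4R stood at opposite ends for each Per gene or close to it.

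Each array's activators and repressors were then averaged as differences from the placebo mean of the tissue. In liver the activator mean and the repressor mean had opposite signs in 15 of 18 livers, 9 of 9 with placebo and 6 of 9 with haloperidol. Placebo 3N had activators at 1.11 and repressors at -0.89, and haloperidol 2L had 1.37 and -0.51. Placebo 4R had activators at -0.81 and repressors at 0.70, and haloperidol 1B had -0.93 and 0.43. Placebo 1N, haloperidol 1R, 3B, 3R and 4N had differences between the means of -0.14 to 0.17 and so lay near the balance of the placebo group. The difference of activators minus repressors was 0.00 ± 1.09 (SD, n = 9) in placebo and 0.16 ± 0.94 in haloperidol livers, so the treatments did not separate.

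In brain the signs were opposite in 6 of 10 placebo and in 2 of 10 haloperidol brains. Since both quantities are differences from the placebo mean, the haloperidol values include the shift of that group: the activators there were at -0.19 ± 0.18 and the repressors at -0.20 ± 0.12 (SD, n = 10). Their difference was 0.01 ± 0.10, against 0.00 ± 0.19 in placebo brains. The largest difference among brains was in placebo 4R, with activators at -0.29 and repressors at 0.10, and haloperidol 4N was lowest in both, at -0.57 and -0.36. These averages describe the members and carry no test.

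**Figure D3:**
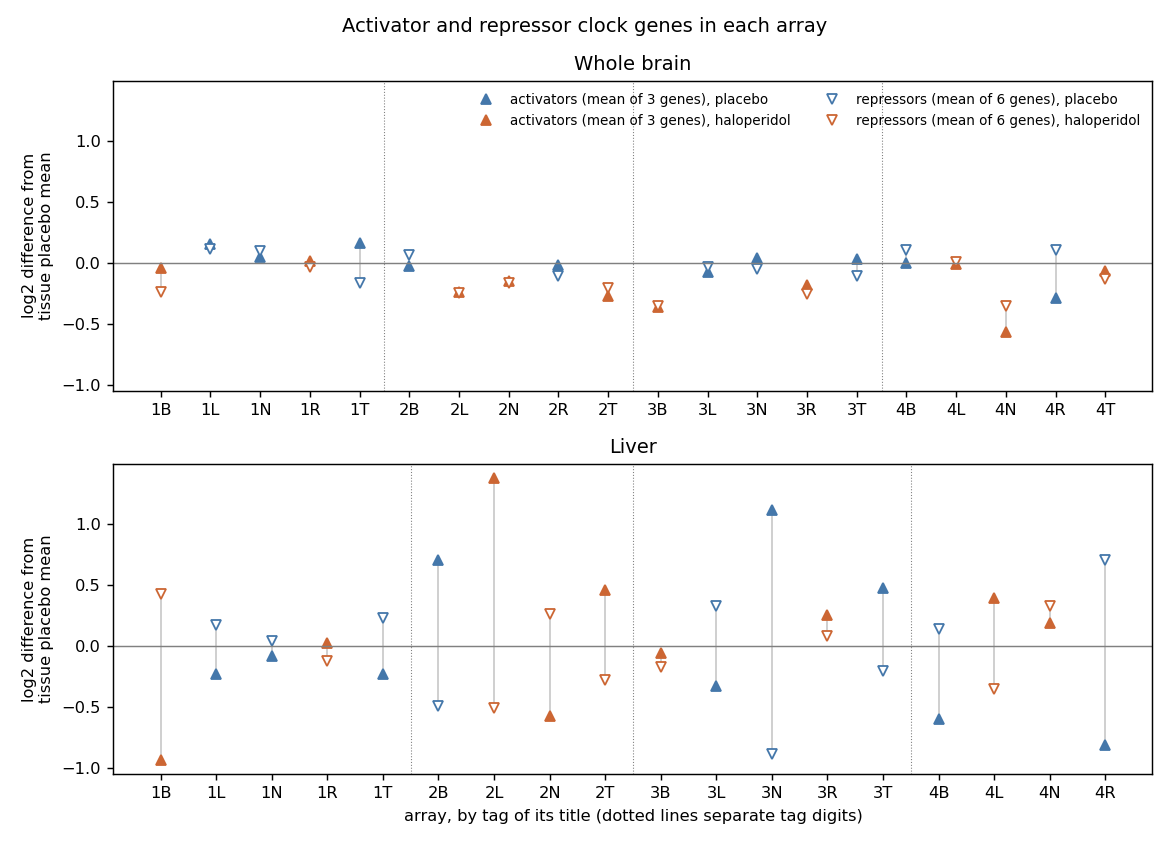
Mean of the 3 activators (filled triangles) and of the 6 measured repressors (open triangles) in each array, as log2 difference from the placebo mean of the tissue, in brain (upper panel) and liver (lower panel), with placebo in blue and haloperidol in orange. A grey line joins the means of 1 array; in liver they stand on opposite sides of 0 in 15 of 18 arrays, and in brain in 6 of 10 placebo and 2 of 10 haloperidol arrays.

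Relations between genes were measured across arrays after each value was centred on its group mean, so that a treatment difference could not produce them. The 9 genes give 36 pairs in each tissue and 72 tests in all, each with a permutation test that shuffled arrays within groups (100000 resamples, two-sided) and Benjamini-Hochberg adjustment over the 72. The smallest p that this can give is 1e-05.

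In liver most activator and repressor pairs ran in opposite directions across arrays. Of the 18 pairs of an activator with a repressor, 15 had a negative r, of which 14 passed, and the median r was -0.75. The 3 positive pairs were those of Cry1 with Arntl (0.61), Npas2 (0.59) and Clock (0.23), and the first 2 passed. All 3 pairs of activators were positive and passed. Of 15 pairs of repressors 10 were positive, 9 of them past the threshold, and the 5 negative ones all involved Cry1, which passed with Per3 (-0.62) and Nr1d2 (-0.67). Cry1 thus varied with Arntl and Npas2 and against Per3 and Nr1d2 across livers. Its pairs with Clock, Per1, Per2 and Cry2 did not pass.

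Arntl and Npas2 were nearly proportional across livers, with Pearson r = 0.96 (permutation p = 1e-05, adjusted 0.00054) and Spearman rho = 0.93 (adjusted permutation p = 0.00072). Without the 2 livers farthest from the median of Arntl, r was 0.93. Arntl and Per3 had r = -0.85 (permutation p = 3e-05, adjusted 0.00054) and rho = -0.84 (adjusted permutation p = 0.00162), and r = -0.79 without the 2 farthest livers. Arntl and Nr1d2 had r = -0.84 (permutation p = 2e-05, adjusted 0.00054) and rho = -0.75 (adjusted permutation p = 0.00456), and r = -0.75 without the 2 farthest.

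The remaining relations of Arntl in liver were -0.78 with Per1, -0.75 with Per2, -0.62 with Cry2 and 0.59 with Clock. Clock itself was set most firmly against Cry2 (r = -0.79, adjusted permutation p = 0.00297) and Per3 (-0.75), and its r with Nr1d2 of -0.21 did not pass. Within placebo livers alone 9 activator and repressor pairs passed as negative, and within haloperidol livers alone 5, by the exact permutation test, and each group had 15 negative and 3 positive pairs. Arntl with Per3 was at -0.86 in placebo and -0.88 in haloperidol livers, and Arntl with Npas2 at 0.95 and 0.97. Without the 2 livers farthest from the median of the first gene of a pair, 9 negative and 0 positive pairs passed. The pairs of Cry1 with Arntl and Npas2 were then still positive, at 0.40 and 0.34 (adjusted permutation p = 0.216 and 0.280), and over all 18 livers their rho of 0.57 and 0.60 passed (adjusted permutation p = 0.0334 and 0.0327).

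In brain 12 of the 18 activator and repressor pairs were positive, of which 8 passed, and 6 were negative, of which 5 passed, with a median r of 0.38. The negative pairs were those of the 3 activators with Cry1 and with Nr1d2. Arntl ran with Npas2 (r = 0.72, adjusted permutation p = 0.00297), Cry2 (0.69), Per1 (0.58), Per3 (0.56) and Per2 (0.54), and against Nr1d2 (-0.70, adjusted permutation p = 0.00463). Beside this, the median size of r with Arntl over all genes was 0.43 in brain and 0.19 in liver. Per1, Per3 and Per2 stood only at places 1895, 2136 and 2299 from the top in brain. The share of all gene pairs that would pass was not computed. Per1 and Per2 ran closely together (r = 0.84, adjusted permutation p = 0.00058), as they did in liver (0.79). Of the 18 activator and repressor pairs, 15 had opposite signs in brain and liver, and the exceptions were the 3 pairs of Nr1d2, negative in both. Those brain signs come from both treatments together, while in placebo brains alone 12 of the 18 pairs were negative. The difference in r between tissues was not tested.

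**Figure D4:**
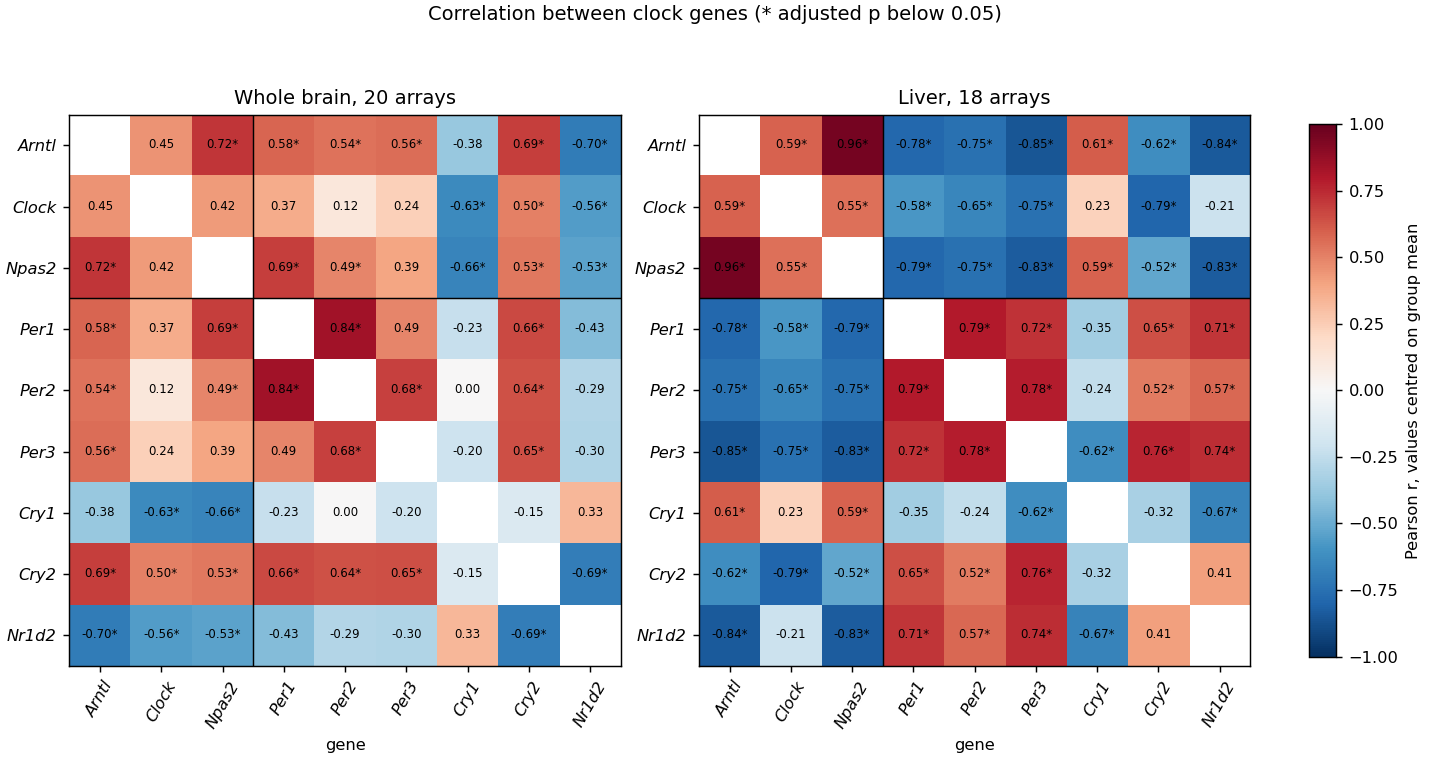
Pearson r between the clock genes across 20 brain arrays (left) and 18 liver arrays (right), each value centred on its group mean, from -1 (blue) to 1 (red); an asterisk marks an adjusted permutation p below 0.05. Black lines separate the 3 activators from the 6 repressors. In liver the block of activators against repressors is blue apart from Cry1, while in brain the Per genes and Cry2 are red with the activators and Cry1 and Nr1d2 are blue.

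The brain relations varied with the arrays included more than those in liver. In haloperidol brains alone 12 of the 18 pairs were positive, 8 of them past the threshold, with a median r of 0.70. In placebo brains alone 6 were positive, 0 of them past the threshold, and 12 were negative, 2 of them past the threshold, with a median r of -0.18 over the 18. Clock with Per2 was at 0.81 in haloperidol brains (adjusted permutation p = 0.018) and at -0.81 in placebo brains (adjusted permutation p = 0.018), and Clock with Per3 at 0.81 and -0.83, while Clock with Per2 over all brains was at 0.12. The size of r over all genes is not given here for 1 treatment alone, nor is the share of all gene pairs that would pass. These counts are therefore not shown to be particular to clock genes. The difference in r between the treatments was not tested.

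Some brain relations did not pass without the farthest arrays. Without the 2 brains farthest from the median of Arntl, its r was 0.43 with Npas2 (adjusted permutation p = 0.123, rho over all brains 0.73) and -0.50 with Nr1d2 (adjusted permutation p = 0.119, rho -0.58), so neither passed, while it stayed at 0.73 with Per2 (adjusted permutation p = 0.00873, rho 0.61). Per1 with Per2 was at 0.79 without the 2 farthest (adjusted permutation p = 0.00504, rho 0.83). Among activator and repressor pairs 4 positive and 0 negative ones then passed.

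Arrays and their overall level also moved with the brain values. Leaving out placebo 1L and haloperidol 4N and 4T, 10 pairs were positive and 8 negative, of which 3 and 3 passed. Across brains the deviation of Per3 from its group mean had an r of 0.71 with that of the array median, and Arntl one of 0.49, whereas in liver no clock gene went beyond 0.39 in size. With the array median regressed out, a choice made after seeing the data, 3 positive and 5 negative brain pairs passed, and 14 negative pairs passed in liver.

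**Figure D5:**
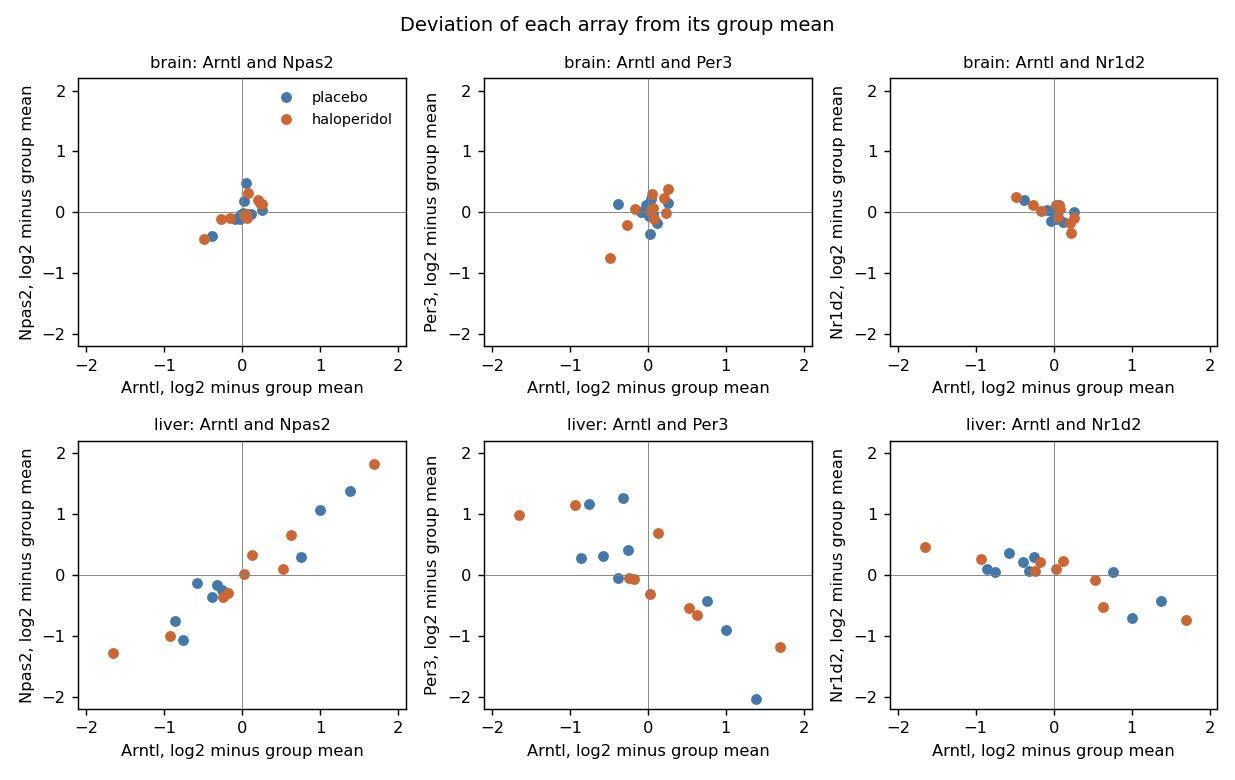
Deviation of Npas2, Per3 and Nr1d2 from the group mean (vertical) against that of Arntl (horizontal), in log2 units, for brain (upper row, 20 arrays) and liver (lower row, 18 arrays), on the same scales. Liver points run along a rising line for Npas2 and falling lines for Per3 and Nr1d2, and brain points lie close to the centre, with haloperidol 4N as the lowest for Arntl and Per3.

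Array titles carry a tag of a digit and a letter, and arrays with 1 digit could share something that the labels do not state, so clock genes were compared between the 4 digits with treatment in the model. By limma's F test 0 of the 9 genes passed in either tissue, and 3 of 9 in each had an unadjusted p below 0.05, where 0.135% of all genes passed in brain and 1.11% in liver, and 12.9% and 20.4% had an unadjusted p below 0.05. In liver Nr1d2 came nearest (limma adjusted p = 0.0788): the 5 livers of digit 1 lay 0.21 to 0.47 above their group means, and Arntl in the same livers stood at -1.65 to -0.18 from its group means. Per1 was 0.14 to 0.74 above in those 5 livers (limma adjusted p = 0.121). With the array median subtracted, 1 of the 9 passed in liver, Nr1d2 (limma adjusted p = 0.0274), where 1.95% of genes did. When pairs were centred on group and digit together, the liver activator and repressor pairs kept 15 negative signs and a median r of -0.68, of which 1 pair passed, Clock with Cry2 (r = -0.98, adjusted permutation p = 0.013), and in brain 0 of 18 passed, with 12 positive. Few arrays shared both group and digit, so even a large r could fail to pass. Arntl with Npas2 in liver was at r = 0.94 with an adjusted permutation p of 0.0623. The lower counts therefore do not show that the relations were absent within digits.

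A brain and a liver array shared each of 18 tags. Across these tags the brain deviation of a clock gene showed no relation to the liver deviation of the same gene that passed. Pearson r ran from -0.11 for Npas2 to 0.36 for Cry1 (18 tags, permutation p = 0.154, adjusted 0.927), with rho of -0.20 to 0.40. Of the 9 genes 0 passed, and 0 had an unadjusted p below 0.05. Haloperidol 4N, the lowest brain for Arntl, had a liver Arntl value of 6.53, the median of its group.

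Across livers, the genes whose values followed Arntl most closely were named from all 12547 genes tested, by Pearson r over 18 arrays after centring, as a description. The 5 highest were Npas2 (0.96), Lgalsl (0.94), Mreg (0.92), Dtx4 (0.92) and Gldc (0.92), a glycine decarboxylase gene. The 5 lowest were Usp2 (-0.92), a deubiquitinase gene, Ciart (-0.91), a circadian repressor, Tef (-0.90), a D-box factor, Nrg4 (-0.89), a secreted growth factor, and Coq10b (-0.89). Per3 was the 7th lowest, Nr1d2 the 8th, Per1 the 15th and Per2 the 20th. The median size of r over all genes was 0.19.

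Brain gave another picture. There the 5 highest were Trak1 (0.90), Cit (0.90), Ddhd1 (0.90), Dhx38 (0.89) and Pex6 (0.89), and the 5 lowest Gm5779 (-0.88), Selenoo (-0.86), Atp6v1e1 (-0.86), Cdk4 (-0.85) and Psme1 (-0.85), with a median size of 0.43 over all genes. Npas2 held place 705 from the top and Nr1d2 place 578 from the bottom. Arrays of a tissue share their overall level and processing, so these coefficients are not independent of one another.

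Other genes of the clock pathway were read from the same fits. Those tested numbered 18 in each tissue, while Dbp had no probe of a single name, Timeless was dim in brain and Rorb in liver. In brain 2 of the 18 were lower and 2 higher, where 15.2% of all genes passed in each direction and 30.4% in all, and 0% with the array median as a covariate. Arntl2, a relative of Arntl, fell by 0.43 (SE 0.091, limma adjusted p = 0.00444), and Csnk1e, a kinase of the PER proteins, by 0.20 (SE 0.077, limma adjusted p = 0.0488). Nampt, an enzyme of NAD synthesis under clock control, rose by 0.39 (SE 0.091, limma adjusted p = 0.00539), and Fbxl21, an F-box protein that acts on cryptochromes, by 0.37 (SE 0.10, limma adjusted p = 0.0101). The median change of the 18 was -0.10, beside -0.02 over all genes. Among those that did not pass, Usp2 was at -0.18 (limma adjusted p = 0.0512) and Csnk1d, the relative of Csnk1e, at -0.14.

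In liver 0 of the 18 passed by limma, and 0 had an unadjusted p below 0.05. Usp2 (-0.71, interval -1.52 to 0.11, limma adjusted p = 0.519) and Ciart (-0.64, interval -1.65 to 0.36, 0.631) had the largest values, with intervals that included 0. Several pathway genes were instead related to Arntl across livers. The D-box activator Tef was at -0.90 with Arntl, the opposed factor Nfil3 at 0.83, and the E-box repressor Bhlhe41 at -0.79. Hlf was at -0.56 and Nampt at -0.66. Rora (0.12), Gsk3b (0.14), Sirt1 (0.17) and Fbxw11 (0.05) were below the median size of r over all genes.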

How the data were processed

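Affymetrix arrays measured whole brain (20 arrays) and liver (18). The deposited values are log2 expression values that the authors made with Affymetrix Expression Console by RMA. This is per the submitters' processing notes, and no version is stated. RMA aims to equalise arrays, so changes are relative to the other genes. The medians of the deposited values still differed between brain arrays, from 6.08 to 6.40. Reads and depth do not apply, and the number of arrays limits the precision. Of 35556 probes, 21218 had 1 gene symbol in the platform annotation, whose names may be outdated, and gave 18820 genes. The 33.3% of genes with the lowest mean in a tissue were left out, which left 12547.

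Treatments were compared with limma 3.58.1 in R 4.3.3 (lmFit, eBayes, Benjamini-Hochberg, threshold 0.05), and correlations in Python 3.11.15 with permutations (100000 resamples, or all orderings for 9 arrays). The labels do not say whether arrays of 1 tag come from 1 mouse. Each of the 18 tags with a brain and a liver array had the same treatment in both. The consensus correlation of brain and liver arrays of 1 tag was -0.033, which cannot show whether they came from 1 mouse. The main fits did not pair them, and fits with the tag as a block are given below. Within a tissue the design text gives 1 mouse per array, and p-values measure the spread between mice. Within groups arrays correlated at 0.964 to 0.992 and none were identical. Alternatives covered the filter, normalization, tag blocks, variance model, weights, probes, arrays fitted and a Wilcoxon test. Clock and pathway genes, lists and alternatives were chosen with earlier results of these data known. Named were the 10 clock genes, pathway genes past the threshold or of smallest p (at most 4 per tissue), the 5 highest and lowest in r with Arntl per tissue, and Snap25, Alb and Gh. Other pathway genes and markers were named after their values were seen. On simulated data with 200 changed genes the test recovered 89.6% of changes of 0.5 in brain with 11 false calls, and 64.2% in liver with 6. The simulated noise was drawn for each gene alone, with no shift shared by an array, and the changed genes were picked from all genes tested. These figures therefore do not cover the array level of the brains or the wide spread of clock genes in liver.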

Additional observations from a re-analysis of the deposited data

Results flagged for a closer look

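In the placebo brains, Arntl in array 4R (7.90) stood apart from the rest of its group, the nearest of which was at 8.20. In the haloperidol brains, Per3 in array 4N (7.31) stood apart, with the nearest array at 7.85. Both were lowest values that lay farther from their nearest neighbour than Dixon's 95% limit allows for 10 samples. Of 36 groups of a gene, tissue and treatment, 2 held such an array, and chance gives about 1 in 20. Without haloperidol 4N the brain change of Per3 still passed.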

How the results depend on the processing

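The changes were not past the threshold in liver, or between tissues, under any alternative run. In brain the 5 lower genes became 4 by the Wilcoxon rank sum test (Per1 at an adjusted p of 0.0977), 1 with the array median subtracted, with 1 higher, 0 with all 38 arrays in the fit, 0 with the array median as covariate and 2 without placebo 1L and haloperidol 4N and 4T. Across the alternatives other than leaving out 1 array, Per1 lost its call in 6 and Clock passed as lower in 2. Leaving out each brain array in turn gave 3 to 6 lower and 0 to 1 higher. The array median nearly separated the treatments in brain, so the fit with it as covariate cannot tell them apart well. The causes were not tested.

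Directions turned for small values. In brain, with the array median subtracted, Clock was at 0.0066, Npas2 at 0.014 and Cry1 at 0.076, and with it as covariate Npas2 was at 0.068 and Per3 at 0.073. In liver, where none passed, subtraction gave Clock -0.079, Per1 -0.0021 and Cry2 -0.065, and the covariate Per3 -0.13, Cry2 -0.034 and Nr1d2 0.041. Quantile normalization gave Nr1d2 0.021, the tag digit as a block Arntl -0.062 and Nr1d2 0.13, and array weights Arntl -0.0098, Clock -0.034 and Nr1d2 0.014. Without 1 liver array in turn, changes ran from -0.097 to 0.32 for Arntl, -0.069 to 0.081 for Clock, -0.10 to 0.24 for Per1, -0.048 to 0.36 for Per3, -0.063 to 0.069 for Cry2 and -0.097 to 0.083 for Nr1d2. The liver minus brain difference with subtraction was -0.085 for Clock and -0.0024 for Cry2.

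With the title tag as a replicate block, pairing brain and liver arrays, 0 of the 9 differences between tissues passed, as without it, whether the block was random (21.7% of genes passed) or fixed over 18 tags (16.1%).

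For activator and repressor pairs past the threshold, brain had 8 positive and 5 negative. These became 4 and 4 by Spearman's rho, 0 and 0 centred on group and tag digit, 3 and 3 with the array median subtracted, 3 and 5 with it regressed out, 4 and 0 without the 2 farthest arrays, 3 and 3 without placebo 1L and haloperidol 4N and 4T, 0 and 2 in placebo brains, and 8 and 1 in haloperidol brains. In liver the 2 positive and 14 negative became 0 and 1 centred on group and digit, 0 and 9 without the 2 farthest, 0 and 9 in placebo livers and 0 and 5 in haloperidol livers, where fewer arrays entered. Few arrays shared both group and digit, so the counts centred on both come from a weak test. In brain r turned for Arntl with Cry1 (0.063 without the 2 farthest) and, in placebo brains, with Clock (-0.032), Per2 (-0.011) and Per3 (-0.16). In liver no r of Arntl with a clock gene changed sign under the settings run. For the tag digit, 1 liver gene passed with the array median subtracted, and the same-tag relations stayed at 0 genes.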
